A study of Mus musculus with 80 samples.

Results

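The regions described here are 7522 sites in the 3′ untranslated regions (3′ UTRs) of mouse protein-coding genes at which peaks were called again and again in RXR chromatin immunoprecipitation with sequencing (ChIP-Seq) of livers lacking PPARγ. Peaks of 40 ChIP libraries on chromosomes 1 to 19, X and Y were merged into 215015 sites by overlap. A site was kept when at least 3 of the 20 PPARγ-null libraries had a peak in it and its strongest summit, the summit with the highest -log10 p in any library, lay in a 3′ UTR and in no coding exon or 5′ UTR (GENCODE release M21, mm10). Of the 31636 sites called in 3 or more null libraries, 23.8% were kept, and 18420 others lay in coding exons and 3220 in introns. The kept sites fell in 4508 of 21938 protein-coding genes (20.5%), and 120 of them lay in the 3′ UTRs of more than 1 gene. The sites were thus selected on peak calls in the null libraries and on the place of the strongest summit, so their recurrence in those libraries is a description and was not tested.

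The study examined how pioglitazone (Pio), a drug that activates PPARγ, and high-fat diet (HFD) alter RXR-DNA binding in liver with and without PPARγ. The labels give all mice as C57BL6/J males of 5 months, after 12 weeks on diet. WT mice were wildtype, and the knockout (KO) mice carried floxed PPARγ alleles with the Alb-Cre transgene, in which the albumin promoter drives Cre in hepatocytes. The WT mice were not described as littermates of the KO mice. Each genotype had 4 groups of 5 livers, on control diet with vehicle (Control), control diet with Pio (Pio), high-fat diet with vehicle (HFD) or high-fat diet with Pio (HFD-Pio). For 15 of the 20 KO libraries (KO Pio, KO HFD and KO HFD-Pio) the antibody label reads none while the titles name RXR, and these were taken as RXR ChIP. In the 5 KO Control libraries, whose labels name the RXR antibody, 6023 of the 7522 sites (80.1%) were called at least once and 2515 (33.4%) in 3 or more.

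RXR is a nuclear receptor that pairs with other receptors of its family, among them PPARγ, and the PPARγ-RXR pair binds direct repeats of the motif AGGTCA that are spaced by a single base. Such elements are best known from promoters, introns and distant enhancers. The 3′ UTR is the part of a messenger RNA after the stop codon, where microRNAs and RNA-binding proteins act on stability and translation. It is usually encoded in the last exon and ends at the site where the transcript is cut and polyadenylated.

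The genotypes differed in how the data were made, which sets what can be compared. After removal of duplicates, WT libraries kept 2.04 to 4.26 and KO libraries 0.628 to 1.06 megatags (Mtags). The cutoff of the peak caller was 0.001 on the p scale for WT libraries and 0.05 on the q scale for KO libraries. Genotype cannot be told apart from depth and cutoff in any count set across them. The libraries KO Control 4 and KO HFD 5 called few sites and stood apart from the rest of their groups, and without them 7497 sites would have been kept. In 6 of the 10 WT libraries from Pio-treated livers (Pio 2, 3 and 5 and HFD-Pio 1, 4 and 5) the fragment length estimated by the peak caller was 45 to 48 bases.

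The DNA under the leading sites is shown first, because the 12 sites with the most KO calls and the highest fold enrichment are those the later values turn on. Each line gives 25 bases of GRCm38 (mm10) centred on the summit, read on the strand of the transcript, with the summit base in capitals. Tuba1a lies at chr15:98949968-98949992 on the minus strand, Nnat at chr2:157562236-157562260 on the plus strand, Ptms at chr6:124913893-124913917 on the minus strand, Tmsb4x at chrX:167207395-167207419 on the minus strand, Ywhae at chr11:75765380-75765404 on the plus strand and Pfn1 at chr11:70652084-70652108 on the minus strand.
Tuba1a: gtgttccaacacAgaaagttgtggt
Nnat: ttgatttggataTattcaaccagta
Ptms: tgccttccctcaCcatcccatatgt
Tmsb4x: taagatgcaaagAggttggatcaag
Ywhae: cctccctcctccTcggcctccctcc
Pfn1: ccccccaccgttCcctttggctttt
These windows share no evident composition, with 28 to 76% G and C. None of the 6 holds AGGTCA on either strand.

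The spaced repeat of AGGTCA was found near few of the 3′ UTR sites, at a share whose interval included that of 3′ UTR positions in general. With both strands searched within 100 bases of the summit and at most 2 mismatches allowed over the 12 letters of the repeat, 218 of 7522 sites (2.90%, 95% exact binomial interval 2.53 to 3.30%) held a match. The same windows around evenly spaced 3′ UTR positions held it in 2.72% of 10702, those of the coding-exon sites in 2.63% and those of the intronic sites in 3.35%. Of the 12 leading sites, 1 (Pfn1) held a match within 2 mismatches, and the best stretch in the others differed at up to 5 letters. A single AGGTCA occurred within 100 bases of 12.5% of the summits and of 11.3% of the evenly spaced positions. A match is a description of the letters and not a measurement of binding.

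The closest matches among the sites are shown because they are where the element of PPARγ-RXR could be sought. Matches with at most 1 mismatch lay within 100 bases of 0.332% of the summits and 0.355% of the evenly spaced positions. Capitals mark letters identical to the repeat, and each stretch is read on the strand that holds it. Prkcsh is at chr9:22014183-22014195 on the minus strand. Lasp1 is at chr11:97836889-97836901 on the minus strand and Myh10 at chr11:68815079-68815091 on the plus strand.
Prkcsh: AGGTCAcAGGTCA
Lasp1: AGGgCAaAGGTCA
Myh10: AGGTCAgAGGTgA
The Prkcsh stretch had no mismatch and lay 78 bases from the summit (the gene encodes the beta subunit of glucosidase II). Nipsnap2, which encodes a mitochondrial protein, also held a stretch with no mismatch, 74 bases from its summit. The Nipsnap2 site was called in 8 KO libraries at fold enrichments of 3.68 to 4.31 and the Prkcsh site in 4 at 2.79 to 5.26, with neither called in WT. Another stretch without a mismatch belonged to a site of Kdm3b, a histone demethylase, which was called in 4 KO libraries. The Lasp1 and Myh10 stretches, of an actin-binding protein and a nonmuscle myosin heavy chain, were within 4 bases of the summit, and both sites were called in all 20 KO and no WT libraries with mean KO fold enrichments of 6.92 and 6.64.

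Nearly all sites lay in last exons, and a minority reached beyond the exon. A site had a median width of 526 bases against 341 for coding-exon sites and 339 for intronic sites, and 99.6% of summits lay in the last exon of a transcript. Of the sites in last exons, 12.5% reached past the annotated transcript end, by a median of 121 bases. Of the 7428 sites in exons that begin at a splice acceptor, 26.3% reached past it into the intron, by a median of 87 bases and in 287 cases by more than 150. Sites on plus-strand and minus-strand genes were about equally common, with 3750 (49.9%) on the plus strand.

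The place of the summits within the UTR depended on how distance was counted. Of all sites, 35.1% (95% exact binomial interval 34.0 to 36.2%) had the summit within 500 bases of the nearest annotated end, against 29.1% of evenly spaced 3′ UTR positions of the same genes and 35.2% of those of all genes. When each 3′ UTR was divided into 5 equal parts from the stop codon, the part next to the stop codon held 21% of the summits and 15.6% of the positions, and the part at the transcript end 17.6% of the summits and 23.2% of the positions. Longer UTRs held sites more often. The share of genes with a site was 3.01% where the longest annotated 3′ UTR had up to 282 bases and 41.3% where it had 2386 bases or more, the lowest and highest of 5 bins of about equal size. The 3 genes with the most sites had long UTRs, with 24 sites in Zbtb20 (a zinc-finger repressor, 23858 bases), 15 in Ntrk3 (the receptor of neurotrophin 3, 16600 bases) and 15 in Strbp (a double-stranded RNA binding protein, 14162 bases). At most 18 KO libraries called any 1 of the Zbtb20 sites.

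**Figure D1:**
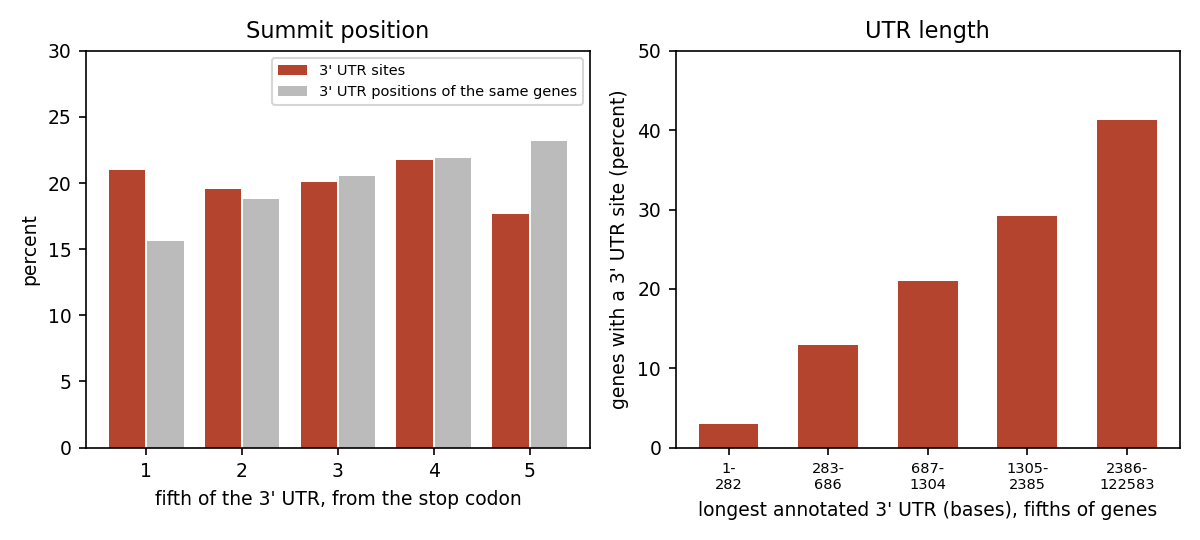
The left panel plots, for each of 5 equal parts of the 3′ UTR counted from the stop codon, the percent of the 7522 summits (red) and of evenly spaced 3′ UTR positions of the same genes (grey). The right panel plots the percent of genes with a site against the length of the longest annotated 3′ UTR in bases, in 5 bins of about equal numbers of genes, and the bars climb from 3.01% to 41.3%.

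Most sites recurred in some KO libraries and not in others. The median site was called in 7 of 20 KO libraries, 773 sites (10.3%) were called in all 20 and 1425 in exactly 3. In coding exons 5.08% and in introns 1.89% of the recurrent sites were called in all 20. Just inside the rule, the strongest sites called in 3 KO libraries were in Nufip2 (an RNA-binding protein, strongest -log10 p 16.6) and Cttnbp2nl (a cortactin-binding protein relative, 14.8), and just outside it the 2 strongest sites called in exactly 2 had values of 17.5, reached in WT Pio 3, and 16.2. In all, 2646 sites of 3′ UTRs were called in exactly 2 KO libraries. The mean fold enrichment of a site over the KO libraries that called it had a median of 4.06 (quartiles 3.72 and 4.62) and reached 48.0. Fold enrichment is the authors' ratio of ChIP signal to local input background at the summit. Whether the peaks at these sites reflect RXR bound to chromatin was not tested, and fold enrichment is given here as signal over input. By the account of the study each value comes from liver tissue, so signal from fewer cells and less signal per cell cannot be told apart. Exonic sites at marker genes of liver and of other tissues are given below.

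The 12 leading sites were called in all 20 KO libraries, and several belong to genes of the microtubule and actin cytoskeleton. Tuba1a encodes an alpha-tubulin, Tmsb4x an actin-sequestering thymosin, Pfn1 profilin, Cfl1 cofilin, Mapt the microtubule protein tau, and Dpysl3 and Crmp1 collapsin response mediator proteins that act in growing axons. Nnat encodes neuronatin, Ptms parathymosin, Ywhae a 14-3-3 adaptor protein, Nrep a neuronal regeneration protein and Marcksl1 a substrate of protein kinase C.

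At the Tuba1a site, which spanned 1246 bases of the end of the gene, fold enrichments in KO Control livers 1 to 5 were 26.6, 51.4, 55.1, 47.1 and 47.0. They were 55.1, 55.1, 40.4, 55.5 and 47.3 in KO Pio. The 5 values were 57.1, 55.1, 41.9, 31.7 and 49.8 in KO HFD and 53.9, 35.0, 44.2, 49.2 and 60.8 in KO HFD-Pio. The 4 groups overlapped, and the lowest value was that of KO Control 1. In WT the site was called in all 5 Pio livers (12.3, 9.36, 10.4, 7.42 and 10.2), in 4 HFD-Pio livers (3.6 to 12.9) and in no liver without Pio.

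Nnat differed from Tuba1a in that no WT library called it. Its fold enrichments were 41.6, 43.0, 41.8, 42.6 and 48.6 in KO Control and 47.2, 58.6, 41.3, 52.1 and 48.3 in KO Pio. In KO HFD they were 45.1, 48.5, 62.0, 48.4 and 33.7, and in KO HFD-Pio 33.8, 40.5, 48.1, 38.1 and 38.8. The groups overlapped here too. Ptms, Nrep, Dpysl3, Mapt and Crmp1 were likewise called in 20 KO and 0 WT libraries, with mean KO fold enrichments of 41.8, 35.8, 33.1, 30.6 and 28.8.

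Tmsb4x was called in more WT libraries than the other leading sites. Its values were 32.1, 44.5, 44.3, 29.8 and 39.4 in KO Control, 38.3, 45.1, 29.1, 34.9 and 49.5 in KO Pio, 44.4, 34.6, 52.5, 41.4 and 39.8 in KO HFD, and 38.5, 40.5, 36.5, 49.4 and 44.6 in KO HFD-Pio. In WT it was called in 12 libraries, 2 of them untreated (WT Control 4 and 5, at 3.49 and 6.16), and its values in the 10 Pio-treated WT livers ran from 2.14 to 13.9. The KO values thus did not overlap the WT values, across libraries that differed in depth and cutoff. Ywhae, Pfn1 and Cfl1 were called in 11, 9 and 9 WT libraries and Marcksl1 in 2.

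**Figure D2:**
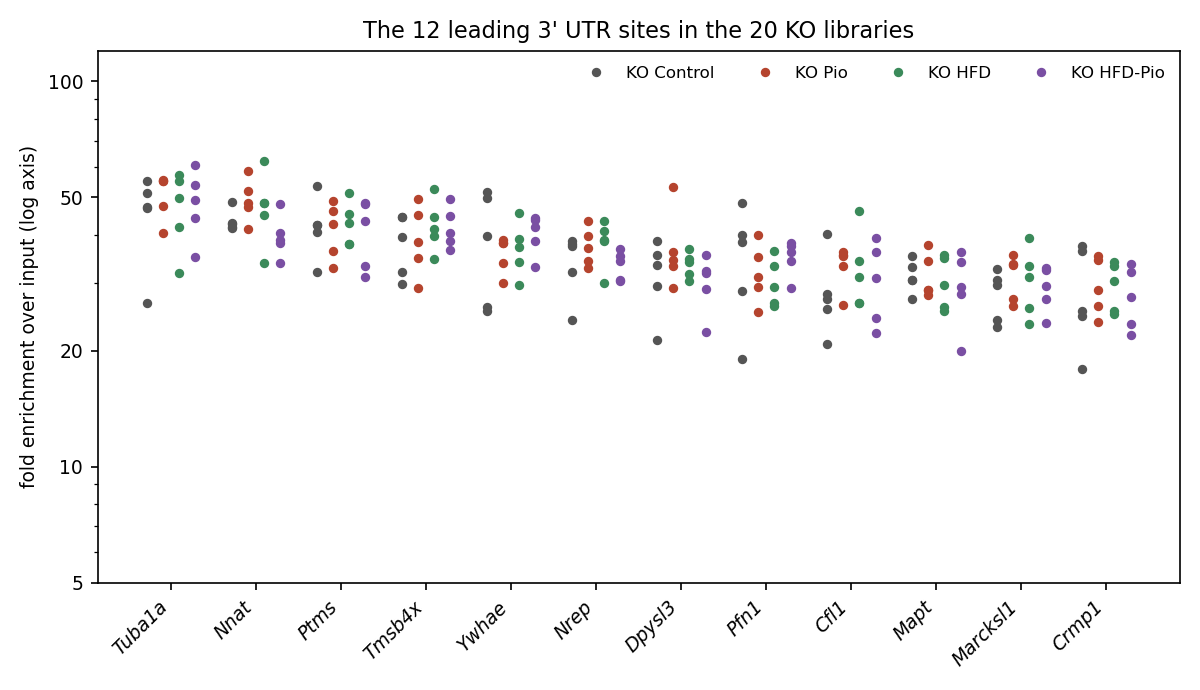
Each point is the fold enrichment over input (log axis) of 1 KO library at 1 of the 12 leading 3′ UTR sites, and colours mark the 4 KO groups of 5 livers. The groups overlap at each of the 12 genes, and all values lie between 18 and 62.0.

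The order of the 773 sites called in all 20 KO libraries was similar from library to library. Over the 190 pairs of libraries, Spearman's rho of fold enrichment across these sites ran from 0.61 to 0.741 with a median of 0.685. Pairs from the same group had a median of 0.684 and pairs from different groups 0.685. These are descriptions across sites of 1 genome, each taken against its own input, and sites are not independent replicates.

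The genes with sites fell unevenly over 21 gene lists. The lists were drawn up with earlier results of these data known, so the shares are descriptions and not independent support. Against 20.5% of all protein-coding genes, 27 of 30 genes of synaptic and neuronal signalling (90.0%) and 17 of 24 genes of the neuronal cytoskeleton (70.8%) had a 3′ UTR site. Their median longest 3′ UTRs were 1515.5 and 1662.5 bases, and 29.1% of all genes with 1305 to 2385 bases had a site. The higher share was not particular to 3′ UTRs. Coding-exon sites were found in 28 of the 30 and 23 of the 24 genes, against 23.9% of all protein-coding genes. The median synaptic site was called in all 20 KO libraries with a mean fold enrichment of 7.35. Gap43, a growth cone protein, reached 15.3 to 24.7 in KO Control, 21 to 34.9 in KO Pio, 21 to 32.2 in KO HFD and 14.2 to 32.7 in KO HFD-Pio. Vamp2, a synaptic vesicle protein of the fusion machinery, had a mean KO value of 16.7. In the granin and neuropeptide list 8 of 15 genes had a site, led by Sst (somatostatin) in 19 KO libraries. The myelin and astrocyte list had 10 of 20, led by Cpe (carboxypeptidase E), Scd2 (a stearoyl-CoA desaturase) and Glul (glutamine synthetase), which are not restricted to those cells.

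Among lists of genes that all cells use, calmodulins and 14-3-3 proteins had a site in 7 of 9 genes, splicing factors and hnRNPs in 18 of 28, translation factors in 11 of 20 and chaperones in 10 of 19. Eef2 and Eif4g2, an elongation and an initiation factor, had mean KO fold enrichments of 23.8 and 22.5. Hnrnpa2b1, an hnRNP, had 20.8, and Calr, an endoplasmic reticulum chaperone, 10.9. Oxidative phosphorylation and ribosomal protein genes showed another pattern. In the first list 24 of 26 genes had a coding-exon site and 6 a 3′ UTR site, led by Cox6c, Sdhd and Sdhc, and in the second 20 of 24 had a coding-exon site and 3 a 3′ UTR site (Rpl5, at a site shared with Fam69a, Rps3 and Rps20). The median longest 3′ UTR was 239 bases in the first list and 85.0 in the second, against 1515.5 for splicing factors.

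Liver genes were nearly without sites. None of 25 secreted liver protein genes and 2 of 25 hepatocyte enzyme and transporter genes had one. These were Gstm1, a glutathione transferase, in 20 KO libraries (mean fold enrichment 6.52) and Cat, catalase, in 6. The secreted protein list had a median longest 3′ UTR of 249 bases and the hepatocyte list of 499. Coding-exon sites were also rare, in 1 of 25 genes of each list against 23.9% of all protein-coding genes. The part of UTR length in these counts was not tested. In the check of the labelled tissue, Alb, Apoa1 and Cps1 had no exonic site in any KO library and Ttr had one in 20. Among neuronal markers Snap25, Syt1, Map2 and Tubb3 had an exonic site in 20 KO libraries and Nefl in 16. Gfap and Mog had one in 1 library each, and Aqp4 and Mbp in none. Intestinal epithelium and skeletal and cardiac muscle genes had no 3′ UTR site (0 of 22 and 0 of 14), and Vil1, Cdh17 and Lgals4 had no exonic site. The median longest 3′ UTRs of these 2 lists were 281 and 181 bases. Only 3.01% of all genes with up to 282 bases had a 3′ UTR site. A coding-exon site was found in 1 of the 22 and 2 of the 14 genes. Smooth muscle genes had 4 of 15, led by Tpm1, a tropomyosin, and the smooth muscle markers Myh11, Actg2 and Des had an exonic site in 6, 8 and 6 KO libraries. Extracellular matrix genes had 10 of 17, led by Timp2, Sparc and Col4a1. The part of any other cell type in the 3′ UTR sites was not tested.

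The lists closest to the receptors themselves had sites at shares near that of all protein-coding genes (20.5%). Of 19 genes of RXR and its partners 3 (15.8%) had one. Thra, the thyroid hormone receptor alpha, was called in all 20 KO libraries at 15.6 to 26.2 in KO Control and 20.5 to 24.3 in KO Pio livers, and at 12.8 to 24.3 in KO HFD and 13.6 to 31.7 in KO HFD-Pio livers. Rxrb and Nr4a2 were called in 7 and 6 KO libraries at means of 3.44 and 3.26. Of the 7 PPARγ target genes that the study used as exemplars 1 (14.3%), Cav1 (caveolin), had a site, called in 3 KO libraries (KO Control 4 and 5 at 5.23 and 2.83, KO HFD-Pio 5 at 2.85) and in no WT library. Pparg had none.

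Metabolic lists ranged more widely. Fatty acid oxidation and PPARα target genes had a site in 2 of 21, among them Hadha, an enzyme of beta-oxidation, in 6 KO libraries. LXR and FXR targets had 1 of 14 (Abca1, the cholesterol exporter, in 8 KO libraries). Cholesterol and fatty acid synthesis genes had 10 of 20, against 20.5% of all protein-coding genes. Their median longest 3′ UTR was 1762.5 bases, against 689 in the fatty acid oxidation list and 718.5 in the LXR and FXR list. The part of UTR length was not tested. The median site of the synthesis list was called in 6 KO libraries. Hmgcs1, an early enzyme of cholesterol synthesis, was called in 20 KO libraries with a mean fold enrichment of 9.93.

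**Figure D3:**
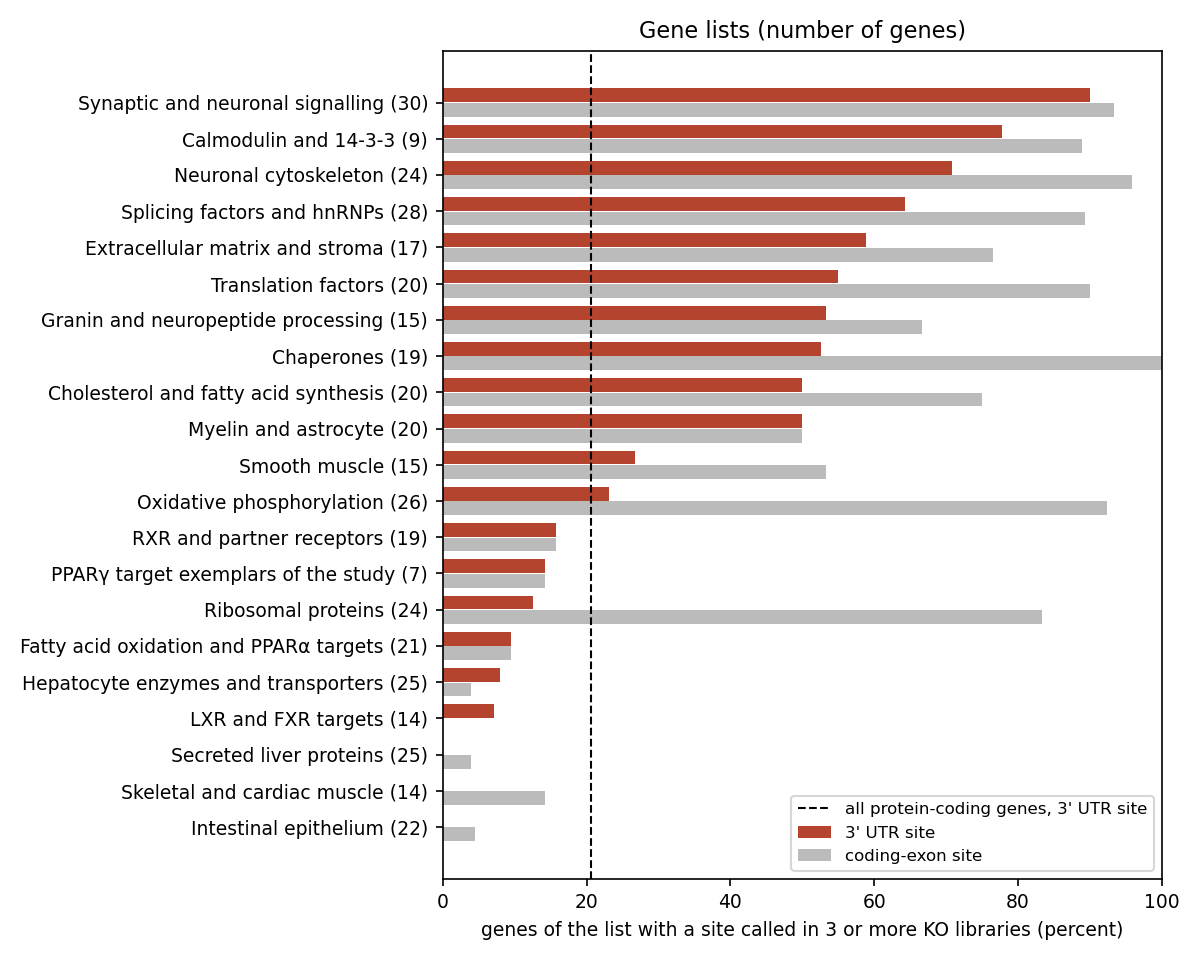
For each of 21 gene lists (number of genes in brackets) bars give the percent of genes with a 3′ UTR site (red) and with a coding-exon site (grey) called in 3 or more KO libraries, and the dashed line marks the 20.5% of all protein-coding genes with a 3′ UTR site. The lists were chosen with earlier results of these data known. Synaptic genes reach 90.0% for 3′ UTR sites and have coding-exon sites in 28 of 30 genes. Oxidative phosphorylation and ribosomal protein genes have coding-exon sites far more often (24 of 26 and 20 of 24 genes) than 3′ UTR sites (6 and 3).

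The share of the 7522 sites that a library called was far larger in KO than in WT livers, which the choice of sites fixes in direction. KO Control libraries 1 to 5 called 32.9, 48.5, 51.0, 20.1 and 48.8% of the sites (40.2% ± 13.4, SD, n = 5), and KO Pio libraries 54.0, 49.8, 49.2, 61.0 and 47.0% (52.2% ± 5.53, SD, n = 5). KO HFD libraries called 52.0, 41.8, 58.3, 44.1 and 22.8% (43.8% ± 13.4, SD, n = 5) and KO HFD-Pio libraries 40.4, 48.0, 51.8, 47.7 and 44.9% (46.6% ± 4.23, SD, n = 5). The 4 groups overlapped, and the low values of KO Control 4 (20.1%) and KO HFD 5 (22.8%) came with 1.06 and 0.924 Mtags kept, above the others of their groups, and with the highest median fold enrichments of called sites among KO libraries (5.49 and 5.55). Without these libraries the group means were 45.3% and 49.0%.

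In WT livers 6593 sites (87.6%) were called in no library, and the maximum was 12 of 20. WT Control libraries called 0.0665, 0.199, 0.0665, 0.146 and 0.160% of the sites and WT HFD libraries 0.0399, 0, 0.0133, 0.0133 and 0.0133%. WT Pio libraries called 3.94, 4.11, 7.80, 0.758 and 4.05%, and WT HFD-Pio libraries 6.35, 0.492, 0.798, 4.56 and 2.47%. Every Pio-treated WT library thus lay above every untreated one on the same diet. Among the treated, the 6 libraries with fragment estimates of 45 to 48 bases called 2.47 to 7.80% and the other 4 called 0.492 to 3.94%. The part of the short fragment estimate in the difference was not tested, and the 4 libraries without it were also above the untreated ones.

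**Figure D4:**
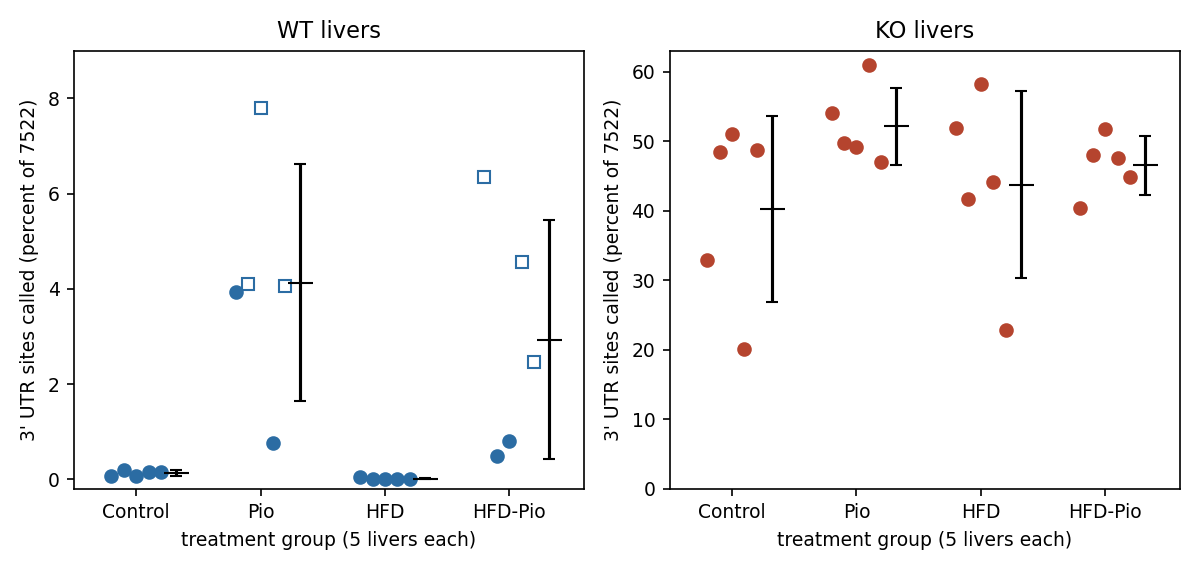
Each point is the percent of the 7522 sites called in 1 library, for WT (left) and KO (right) livers by group, and bars give the mean and SD of 5 livers; the axes of the panels differ. Open squares mark the 6 WT libraries with a fragment estimate of 45 to 48 bases. WT libraries without Pio lie at or below 0.199%, those with Pio at 0.492 to 7.80% and KO libraries at 20.1 to 61.0%.

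WT libraries did not enter the recurrence rule, although a WT library gave the strongest summit at 110 sites, so the WT response to Pio at these sites could be set beside that of other recurrent sites. On control diet 235 of the 7522 sites (3.12%) counted as gained, with a call in at least 3 of 5 Pio livers and in none of 5 Control livers, and 0 as lost. Among all 31636 recurrent sites 6.15% were gained and 0.00316% were lost, so the share at 3′ UTR sites was below the background. Without WT Pio 3 the number of gained sites was 154. The 4 treated WT livers with longer fragment estimates, 2 on each diet, were also taken alone, and 44 sites were called in both such Pio livers and in no Control liver. By a two-sided Fisher's exact test of livers with a call (smallest possible p 0.00794) no site had an adjusted p below 0.05 after Benjamini-Hochberg adjustment over 31636 sites. With 5 against 5 livers a site could pass only if very many sites split 5 to 0, so the adjusted result cannot decide about the gains. By the same test 157 of the 7522 (2.09%, against 4.44% of all recurrent sites) had an unadjusted p under 0.05, all of them called in more Pio livers.

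Under HFD, Pio gave 121 gained sites (1.61%) and 0 lost, against 3.8% gained and 0% lost among all recurrent sites. Without HFD-Pio 1, 4 or 5, the 3 libraries with short fragment estimates, the number gained was 56, 56 and 63. The 2 other HFD-Pio libraries both called 21 sites (0.279%) that no HFD liver called, against 0.714% of all recurrent sites. No site passed Fisher's exact test after adjustment, which again could not decide about the gains. By that test 56 sites (0.744%, against 1.62% of all recurrent sites) had an unadjusted p under 0.05, all with more HFD-Pio livers. The diets shared 104 gained sites, 44.3% of those on control diet and 86.0% of those on HFD. This overlap was not counted over all recurrent sites.

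The gained sites in WT were mostly those called in nearly all KO libraries. The median gained site was called in 19 KO libraries on control diet and in 20 on HFD. The share gained in WT Pio was 0.421% among sites called in 3 KO libraries, 1.80% among those called in 7 to 12 and 14.4% among those called in all 20. These shares were 0.281, 0.984 and 9.70% for HFD-Pio. Recurrent sites of other classes were not split in this way, so whether the rise is particular to 3′ UTR sites was not tested.

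The gained sites named here had calls in all 5 treated livers. Atp1b1, the beta subunit of the sodium pump, was called in all 5 WT Pio livers (12.4, 21.8, 27.9, 3.10 and 18.8) and in no WT Control liver. H3f3b, which encodes histone H3.3, had 20.3, 16.1, 25.7, 4.54 and 16.4, and Marcks, a protein kinase C substrate that binds actin, had 25, 15.1, 18.4, 3.79 and 11.1. Library WT Pio 4 had the lowest value at each of the 3 genes. The KO group means at Atp1b1 lay between 9.04 (HFD-Pio) and 9.97 (HFD).

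Calm2, a calmodulin gene, led the gains on HFD with 22.1, 7.45, 9.02, 34.4 and 9.20 in the HFD-Pio livers and no call in HFD, although 1 WT Control liver had a call at 4.59. Wdr89, a WD-repeat protein, had 21.1, 7.16, 4.59, 24.4 and 15.8, and Hnrnpa2b1 had 19.2, 3.98, 2.95, 24.3 and 11.7. In these genes HFD-Pio 1 and 4 gave the highest values. Emd, the nuclear envelope protein emerin, was on both lists and unlike the others in the KO livers. It was called in 10 of 10 Pio-treated WT livers (13, 13.9, 22.9, 3.75 and 22.9 on control diet, 22.9, 5.17, 4.6, 19.7 and 12.0 on HFD) but in 5 KO libraries, at 2.80 to 5.51, and in none of KO Pio.

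The gene lists were also counted, with no test, by how many of their sites were called in any WT library. Of the 33 synaptic sites 4 and of the 18 neuronal cytoskeleton sites 3 were called in WT, against 12.4% of all 7522. That share rose with the number of KO libraries, from 3.86% of sites called in 3 to 34.0% of those called in all 20. The median site of both neuronal lists was called in 20 KO libraries. In the general lists 7 of 7 calmodulin and 14-3-3 sites, 9 of 14 translation factor sites, 14 of 34 splicing factor sites and 7 of 10 chaperone sites were called. The median sites of these lists were called in 20, 17.5, 12 and 16.5 KO libraries. The WT fold enrichments at Eif4g2 were 5.24 to 18.1 in 5 Pio and 6.10 to 20.2 in 4 HFD-Pio livers, while Gap43 and Mapt had no WT call. Calls in untreated WT livers were few, at 51 sites (0.678%), against 0.396% of coding-exon and 1.46% of intronic recurrent sites. Lars2, the mitochondrial leucyl-tRNA synthetase, and Tmsb4x were called in 2 untreated livers, Lars2 at 5.59 and 9.63 in WT Control 1 and 5, and Fam163b in 2 at 2.91 and 5.38.

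The KO livers address whether the signal at these sites differed with Pio without hepatocyte PPARγ. Among KO libraries only those of KO Control carry an RXR antibody label. In every comparison that includes KO Control, treatment therefore cannot be told apart from the antibody label. The signal at a site could be tested only where all livers compared had called it. Log2 fold enrichment, centred on each library's median, was compared with limma over all such sites of any class, with a call at a Benjamini-Hochberg adjusted p below 0.05 and at least 2-fold. For KO Pio against KO Control 923 of the 7522 sites (12.3%) entered, and 0 were called, against 0.558% of all 2508 sites tested. The smallest adjusted p of a 3′ UTR site was 0.12 (limma), and 45 (4.88%, against 6.50% of all sites tested) had an unadjusted p under 0.05, 22 of them higher and 23 lower with Pio. The middle 95% of the log2 differences ran from -0.41 to 0.38, the median was 0.01, the median SE was 0.20 and no site differed by 2-fold. With limma 14 sites of other classes passed, all lower with Pio.

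The site nearest to a call was Ap2s1, a subunit of the AP-2 endocytic adaptor. Its fold enrichments were 7.33, 6.08, 7.78, 4.64 and 5.59 in KO Control and 12.5, 7.69, 10.8, 14.7 and 11.3 in KO Pio. The ranges met, with the lowest Pio value just under the highest Control value. The log2 difference was 0.73 (SE 0.21, limma adjusted p = 0.12). On the high-fat diet Ap2s1 had 6.57, 9.06, 7.84, 8.79 and 8.95 without and 8.41, 4.53, 7.76, 11.7 and 6.12 with Pio, a difference of -0.10 (SE 0.22, limma adjusted p = 0.996).

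For KO HFD-Pio against KO HFD 993 sites entered and 0 were called, with 0% called over 2775 sites of all classes. With limma 30 (3.02%, against 5.33% of all sites tested) had an unadjusted p under 0.05. The middle 95% of the log2 differences ran from -0.38 to 0.35, with a median SE of 0.20, and no site differed by 2-fold.

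Diet gave no call either. For KO HFD against KO Control 842 sites entered, 0 were called (0% of 2282 sites of all classes) and 21 (2.49%, against 4.6% of all sites tested) had an unadjusted p under 0.05 with limma. Mvb12b, a subunit of the ESCRT-I sorting complex, was at the lowest p with 8.49, 8.46, 9.63, 9.06 and 11 in KO Control and 7.50, 7.68, 5.53, 5.18 and 5.27 in KO HFD (log2 difference -0.67, SE 0.19, limma adjusted p = 0.984). For KO HFD-Pio against KO Pio 1209 sites entered, 0 were called (0% of 3251) and 51 (4.22%, against 5.14% of all sites tested) had an unadjusted p under 0.05 with limma. Klhl23, a Kelch-family protein, had 3.69, 4.64, 3.67, 4.6 and 4.74 in KO Pio and 6.51, 4.72, 6.61, 5.29 and 5.65 in KO HFD-Pio (log2 difference 0.55, SE 0.19, limma adjusted p = 0.847).

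The difference between the Pio effects on the 2 diets was tested at the 773 sites called in all 20 KO livers. With limma 0 were called (0% of 1980 sites of all classes), and 36 (4.66%, against 5.0% of all sites tested) had an unadjusted p under 0.05. Ociad1, an endosomal protein, had the smallest, with a difference of differences of 0.99 on the log2 scale (SE 0.33, limma adjusted p = 0.973). A call needed an estimate of at least 2-fold, so smaller differences could not be called. Without that minimum, 0 of the 3′ UTR sites had a limma adjusted p below 0.05 in any contrast. Over all contrasts the median SE was 0.19 to 0.27, so differences well under 2-fold at single sites could also have gone undetected without it. Sites that lacked a call in any liver compared did not enter these tests. A difference large enough to remove a call could therefore not be seen.

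**Figure D5:**
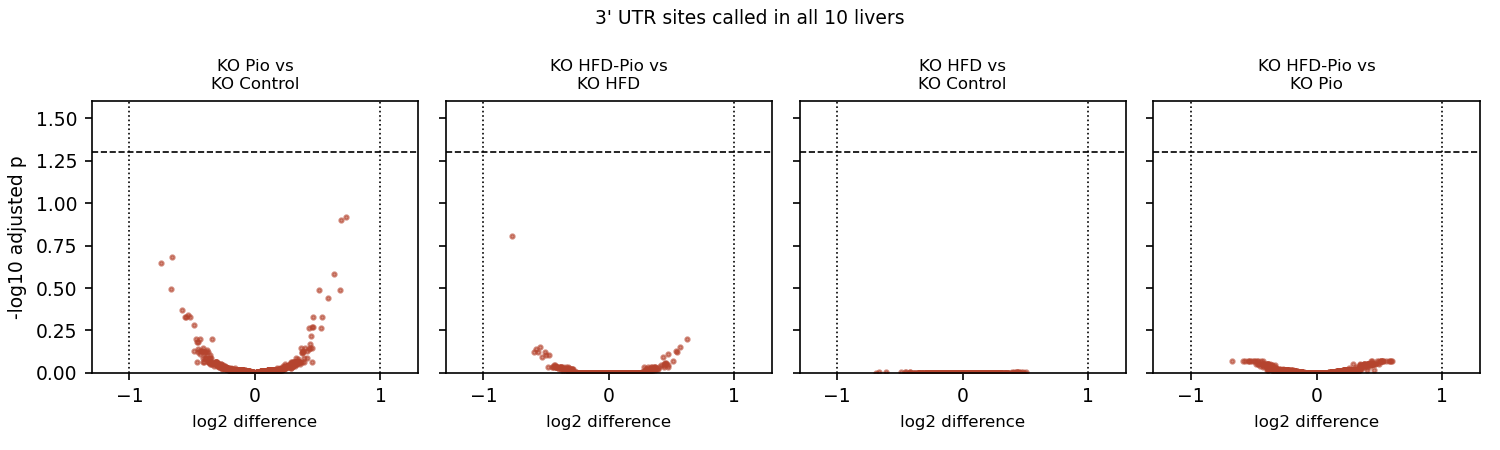
Each point is a 3′ UTR site called in all 10 KO livers of a contrast, placed by its log2 difference in fold enrichment (first group minus second, library medians removed) and by -log10 of the limma adjusted p. Dotted lines mark 2-fold and the dashed line an adjusted p of 0.05. No point of the 4 contrasts lies above the dashed line or outside the dotted lines.

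Counts of gained and lost sites in KO livers are descriptions, because a site called in 3 livers of a KO group passed the rule through that group. KO Pio and KO Control also differed in the antibody label. On control diet the gained sites with Pio numbered 265 of 7522 (3.52%) and the lost sites 44 (0.585%), against 3.71% and 0.787% of all recurrent sites. The gains came at 133, 166, 128, 104 and 158 without KO Pio 1, 2, 3, 4 and 5 and at 405 without KO Control 3, and the losses at 78 without KO Pio 4 and at 23, 14, 14 and 17 without KO Control 1, 2, 3 and 5. Asphd2, Sfxn1, Fam172a and Psd3 were called in all 5 KO Pio and no KO Control livers, with Asphd2 at 3.67 to 5.74. St8sia4, a sialyltransferase, and Chrnb1, a subunit of the muscle acetylcholine receptor, were called in 4 KO Control and no KO Pio livers, St8sia4 at 4.72 to 6.41.

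With HFD as the diet, 118 sites (1.57%) were gained and 86 (1.14%) were lost, against 1.64% and 1.19% of all recurrent sites. The gains came at 68, 64, 65, 61 and 53 without KO HFD-Pio 1 to 5 and at 223 without KO HFD 3, and the losses at 130 without KO HFD-Pio 3 and at 27, 45, 20 and 30 without KO HFD 1 to 4. Gm2a, the GM2 activator protein, and Naa25, an acetyltransferase subunit, were called in all 5 KO HFD-Pio and no KO HFD livers, and Ube2e2 and Thy1 in 4. Pdcd4, a translation inhibitor, was called in all 5 KO HFD and no KO HFD-Pio livers, and in 7 WT livers with Pio at 4.58 to 14.6. Btbd2 was also called in 5 and 0.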

How the data were processed

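RXR ChIP-Seq was done on 40 livers with 40 matched inputs, of which the 40 ChIP libraries have files used here. Per the methods of the study, the authors used Novoalign for alignment to mm10. Peaks of each library against its input came from MACS2, whose version per the file headers was 2.1.1.20160309. The deposited peak tables give the pileup at the summit (signal in tags), -log10 p, -log10 q and fold enrichment (a ratio of ChIP to local background). Both deposited files of each library held the same peaks in 40 of 40 libraries. Reads per site were not used here, so the authors' DiffBind test on reads was not run. Depth is given by the kept tags of the headers, and the binomial intervals cover counting error only. Replicates were separate livers, and p-values measure the spread between them.

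Peaks were merged when they overlapped by at least 1 base, and the strongest peak of a library gave its value at a site. Summits were placed on GENCODE M21. Windows were read from GRCm38. Evenly spaced 3′ UTR positions were taken every 50 bases, and an evenly thinned set of 10702 of them was searched for the repeat. Python 3.11.15, numpy 2.4.6, pandas 2.3.3, R 4.3.3 and limma 3.58.1 (trend) were used. On simulated data for KO Pio against KO Control with 2508 sites, limma recovered 99.0% of changes of 1.5 and 100.0% of changes of 2.5 on the log2 scale, with 1 false call. The simulated sites had a value in every liver, and smaller changes were not simulated. Sites, gene lists and tests were chosen with earlier results of these data known.

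Named were the 12 sites in the most KO libraries, the site with the smallest p per limma contrast, up to 4 gained and 2 lost per Pio contrast by difference in livers called, up to 3 genes per list, the 3 genes with the most sites, the 3 sites in the most untreated WT livers, the study's exemplar genes and Pparg where they had a site, the 5 best repeats and the 2 strongest sites on either side of the 3-library rule. Tissue markers are named in addition. Some genes that these rules name are not reported here. Alternatives were stricter and looser site rules, other scalings, a replicate block, equal list lengths, a stricter q, Fisher's exact test and leaving out each liver.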

Additional observations from a re-analysis of the deposited data

Results flagged for a closer look

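In 64 groups of 5 livers (4 where 1 had no call), the percent of sites called, the median fold enrichment of called sites and the fold enrichments of the 12 leading sites in the KO groups were searched for a value far from the others, which chance alone gives in about 1 in 20 groups. There were 5. The median fold enrichment of called sites was 5.55 in KO HFD 5 against 4.52 to 4.69 in the other KO HFD libraries, and this library also called the fewest sites of its group. It was 3.93 in KO HFD-Pio 1 against 4.61 to 4.72 in the others. At Tuba1a, KO Control 1 had 26.6 against 47.0 to 55.1. At Nnat, KO Control 5 had 48.6 against 41.6 to 43.0. At Cfl1, KO Pio 3 had 26.2 against 33.2 to 36.0.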

How the results depend on the processing

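The number of 3′ UTR sites was 10168 with 2 and 5118 with 5 KO libraries required, and 2427 when each peak needed a -log10 q of 5. In the KO limma contrasts 0 of the 3′ UTR sites were called under each alternative, including the replicate block, which gave 0 calls in each contrast with smallest adjusted p-values of 0.151, 0.277, 0.996, 0.910 and 0.948. Livers that share a number showed correlations of deviations from -0.04 to 0.05 over 1980 sites, and 5 of 20 correlated best with their own number, so the numbers do not pair the livers. Over the alternatives the smallest adjusted p of a 3′ UTR site ran from 0.0618 to 0.256 for KO Pio against KO Control and from 0.0526 to 0.999 for KO HFD against KO Control. Calls over sites of all classes in KO Pio against KO Control ran from 2 without KO Control 1 to 25 without KO Pio 5.

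Gained and lost counts depended on the processing, and the causes were not tested. Gains in WT Pio were 153 with 4 of 5 livers required, 34 with lists of equal length, 86 with a -log10 q of 5, 44 in the 2 livers with longer fragments (chosen after seeing the data) and 0 with Fisher's exact test, and in WT HFD-Pio 56, 18, 27, 21 and 0. In KO Pio they were 53, 30, 63 and 0 under the first 3 settings and Fisher's test, and in KO HFD-Pio 25, 43, 35 and 0. Losses in KO Pio were 6, 24, 7 and 0 and in KO HFD-Pio 9, 39, 26 and 0. The counts of 0 with Fisher's exact test follow from its smallest possible p with 5 livers per group and do not bear on the other counts. Leaving out 1 liver gave 154 to 240 gains in WT Pio, 56 to 121 in WT HFD-Pio, 104 to 405 in KO Pio and 53 to 223 in KO HFD-Pio, and 14 to 78 and 20 to 130 losses in the 2 KO contrasts.

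The mean percent of sites called with a -log10 q of 5 was 0.00798, 1.25, 0 and 0.835 in the Control, Pio, HFD and HFD-Pio groups of WT, and 14.1 in KO Control, 18.8 in KO Pio, 17 in KO HFD and 18.1 in KO HFD-Pio. With lists cut to 575 sites it was 0.0292, 0.378 and 0.277 in the Control, Pio and HFD-Pio groups of WT and 2.16, 2.38, 2.25 and 2.34 in the 4 KO groups. The share of summits within 500 bases of the end was 24.8% when the most distal end was used. The share with the repeat was 0.332% at 1 mismatch and 1.32% within 50 bases of the summit. Evenly spaced 3′ UTR positions had 0.355% and 1.36%. Depth limits what the shallow KO libraries can show at sites with few tags.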
